A study of Eptesicus fuscus and Canis lupus familiaris and Equus caballus with 4 samples.

Results

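The microRNAs miR-22 and miR-101 were among the most read hairpin candidates in testis small RNA of an adult big brown bat, Eptesicus fuscus. They were taken from the bat candidate list as the rows named Candidate_667 for miR-22-3p and Candidate_60 for miR-101-3p. Any row that overlapped these hairpins on either strand, or whose hairpin held the first 18 bases of either mature sequence, was added. This gave 3 of the 762 bat rows, out of 1453 rows in all lists of the series, and the row added was Candidate_668, the 5p arm of miR-22. The pair was chosen with its read counts known, so the reads below are a description and were not tested.

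The series holds adult testis small RNA from 2 big brown bats, a horse and a dog, sequenced as 50-base single-end reads. Of these 4 libraries 3 were analysed here, 1 per species, and the other bat library was not analysed here. No group carried a treatment or a genotype, and all values below come from 1 bat, so there was no replicate error to set them against. The bat candidates summed to 89091 reads, or to 78353 with each identical mature sequence counted once.

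A miRNA gene is transcribed into an RNA that folds back into a hairpin. The nucleases Drosha and Dicer cut this hairpin into a short duplex, and as a rule 1 strand is kept in an Argonaute protein while the other, the passenger strand, is lost. Bases 2 to 8 of the kept strand, its seed, pair with target mRNAs. In human and mouse miR-22 is abundant in heart and skeletal muscle and comes from a noncoding host transcript. In human cells miR-101 is known for repressing EZH2, the enzyme of the Polycomb complex that methylates histone H3. The human genome holds a single miR-22 gene, while miR-101 is made from a pair of genes on separate chromosomes.

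The listed mature sequences are shown first, because their ends and seeds bear on every count below. Letters are those of the deposited list, T standing for U, and capitals mark bases 2 to 8.
miR-22-3p, Candidate_667: aAAGCTGCcagttgaagaactgttg
miR-101-3p, Candidate_60: gTACAGTActgtgataactgaagga
miR-22-5p, Candidate_668: aGTTCTTCagtggcaagcttt

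Both 3p sequences were listed with 25 bases, the greatest length in the list, and the 5p sequence with 21. The list gives a single sequence per row, so the ends of the individual reads are not known. In human the annotated miR-22-3p and miR-101-3p each begin at the second base of the sequence listed here, which moves the seed to bases 3 to 9 of the listed form. In that register the capitals fall as follows.
miR-22-3p, bases 3 to 9: aaAGCTGCCagttgaagaactgttg
miR-101-3p, bases 3 to 9: gtACAGTACtgtgataactgaagga

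A listed length of 25 bases was common among strongly read rows. It was found for 15 of the 16 bat rows with at least 1000 reads, for 40 of the 97 rows from 100 reads up to that limit, for 41 of 142 rows with 10 to 99 reads and for 6 of 230 rows with 1 read. The length of both 3p sequences was thus the common one among rows of at least 1000 reads.

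Both hairpins lay on the minus strand of unplaced contigs. The sources used here name no build for these contigs, so no exon, intron or chromosome can be stated for them. MiR-22 lay at ALEH01073886.1:6735-6869, with the 3p mature at 6770 to 6794 and the 5p mature at 6811 to 6831. MiR-101 lay at ALEH01025132.1:22834-22948, with its mature at 22859 to 22883. Neither contig held another candidate. In the RefSeq gene table of the big brown bat, which is on a later assembly and was used for names and neighbours only, there was 1 gene named MIR22 and 1 named MIR101. There MIR22 sat inside a long noncoding RNA gene, between the protein-coding genes WDR81 and TLCD2, and MIR101 had JAK1 and AK4 as its nearest protein-coding neighbours. The table holds no sequence, so the contigs were not matched to these genes.

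The hairpins are printed because the arm, the passenger strand and the stem are read from them. Capitals mark the listed mature sequences, both arms for miR-22.
miR-22, ALEH01073886.1:6735-6869, minus strand: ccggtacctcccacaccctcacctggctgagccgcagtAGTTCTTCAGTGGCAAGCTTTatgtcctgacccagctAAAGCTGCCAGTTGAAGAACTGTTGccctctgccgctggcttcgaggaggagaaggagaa
miR-101, ALEH01025132.1:22834-22948, minus strand: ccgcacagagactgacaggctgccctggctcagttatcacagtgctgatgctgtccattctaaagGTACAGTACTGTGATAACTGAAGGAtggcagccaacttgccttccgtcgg

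**Figure D1:**
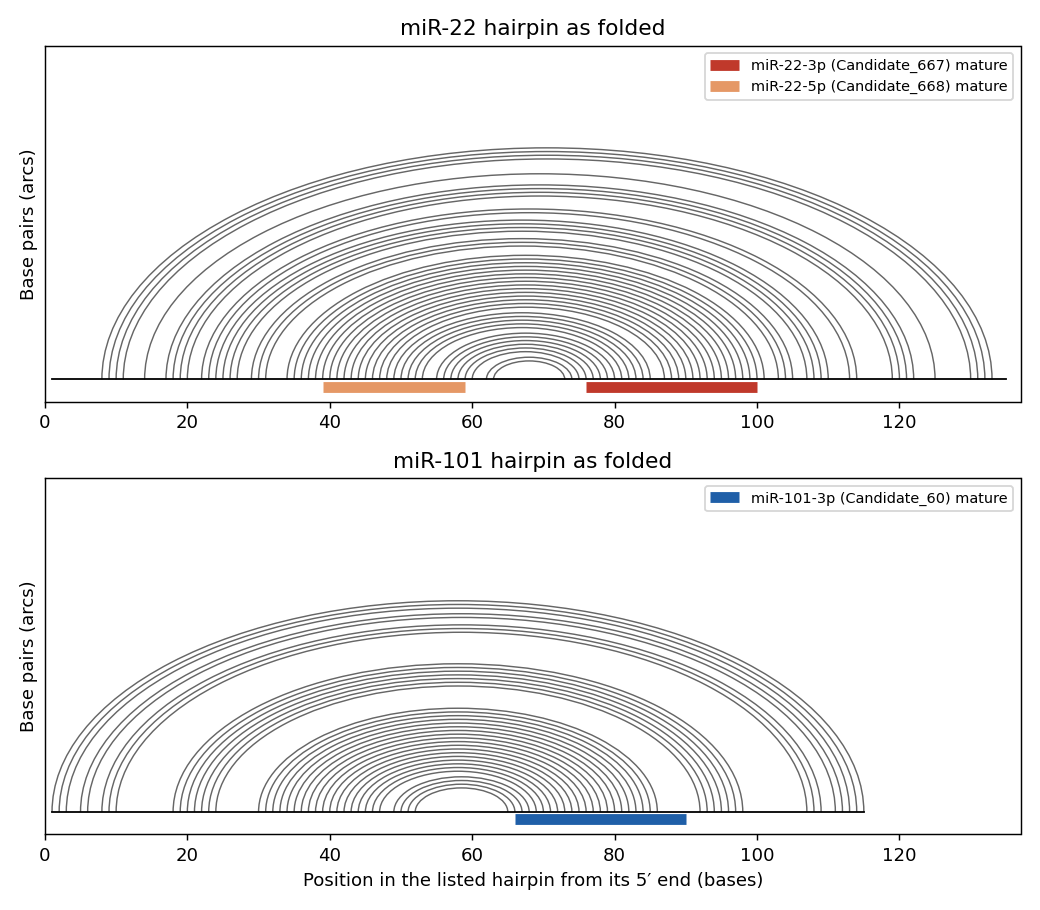
Base pairs of the miR-22 and miR-101 hairpins as folded by RNAfold, drawn as arcs over the position in the listed hairpin in bases from its 5′ end, with the listed mature sequences as coloured bars. The miR-22 matures at 39 to 59 and 76 to 100 face each other across the stem, and the miR-101 mature at 66 to 90 lies mostly under 1 long uninterrupted helix.

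MiR-22-3p had 4975 reads and ranked 3 of 762 bat rows, and miR-101-3p had 2811 reads and ranked 5. These were 5.58% of all listed bat reads for miR-22-3p (exact Clopper-Pearson 95% interval 5.43 to 5.74) and 3.16% for miR-101-3p (3.04 to 3.27). MiR-22-3p thus had 1.77 times the reads of miR-101-3p (exact interval 1.69 to 1.85). The intervals are for counting error only and treat each read as an independent draw. Reads without molecular identifiers are not independent molecules, so the intervals may be too narrow even for that. They say nothing of the spread between bats. The authors' deposited fraction of all reads in their analysis was 0.050 for miR-22-3p and 0.028 for miR-101-3p. All 5 prediction models called the 3 rows, as they did for 15 of the 16 rows with at least 1000 reads and for 51.6% of the whole list.

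By reads, the rows nearest to miR-101-3p were Candidate_493 and Candidate_97, with 2451 reads each. They are different hairpins on separate contigs that share 1 unnamed mature sequence. Next came Candidate_694, whose sequence is that of miR-145-5p, a smooth muscle miRNA, with 3276 reads. The row nearest to miR-22-3p was also Candidate_694, at a log2 ratio of 0.60, followed by Candidate_135, whose sequence is that of miR-99a-5p, with 8100 reads. Candidate_602, which led the list with 9487 reads, stood above both. Likeness in reads within 1 library says nothing about shared control.

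MiR-22-3p and miR-101-3p differed in how many distinct read sequences made up their reads. MiR-22-3p, with more reads, rested on 73 distinct sequences, and miR-101-3p on 148. The number for miR-101-3p was the highest of any bat row, ahead of miR-99a-5p at Candidate_135 with 144. Of the 15 rows with more distinct sequences than miR-22-3p, 14 had fewer reads. Some of these rows list the same mature sequence and reads again, so they are not 15 separate sequences.

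Per 100 reads this came to 1.47 distinct sequences for miR-22-3p and 5.27 for miR-101-3p. Among the 16 rows with at least 1000 reads the values ran between 0.611 at Candidate_602 and 6.17 at Candidate_134, with a median of 3.77. From the lowest, miR-22-3p ranked 2 of 16 there and miR-101-3p ranked 14. These rows also include repeated mature sequences. With each identical one counted once, 8.3% of the other rows were lower than miR-22-3p and 83.3% lower than miR-101-3p. The row closest to miR-101-3p in reads on the upper side, miR-145-5p at Candidate_694, had 100 distinct sequences and 3.05 per 100 reads. A row with more reads tends to have fewer distinct sequences per read, and against all rows with at least 100 reads, whose median was 10.3, both miRNAs were low. Distinct sequences can differ in length, in ends or in sequencing errors, and the list does not separate these.

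**Figure D2:**
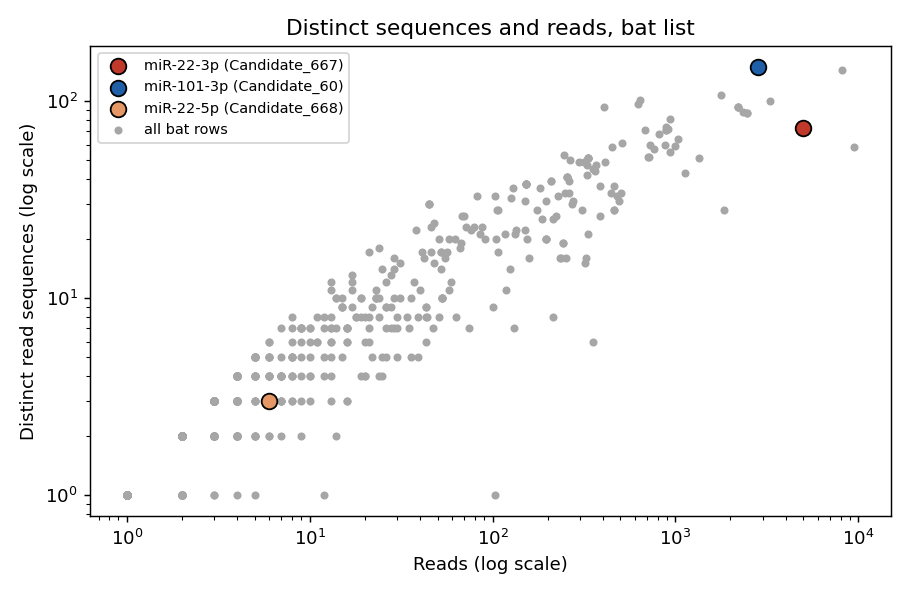
Distinct read sequences against reads for the 762 bat rows, both on log scales, with the 3 rows of miR-22 and miR-101 coloured. MiR-22-3p lies at 73 distinct sequences, below 3 of the 4 rows nearest in rank by reads, and miR-101-3p is the highest point at 148.

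Both miRNAs were read from the 3p arm. Of the other 14 rows with at least 1000 reads, 12 were read from the 5p arm. These 12 include 5 rows whose mature sequence and reads are listed again at another row, so they are not 12 separate sequences. Over the whole list 409 rows were on the 3p arm and 353 on the 5p arm. For miR-22 the opposite arm was listed too. Candidate_668 gave miR-22-5p, the strand usually lost as passenger, 6 reads of 3 distinct sequences. It was 0.120% of the 4981 reads of both arms (exact interval 0.0442 to 0.262).

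The bat list held 90 pairs of rows on opposite arms of 1 stretch, on 72 contigs. In these pairs the arm with fewer reads had a median of 8.0% of the reads of both, and a median of 2.55% in the 51 pairs whose other arm had at least 100 reads. MiR-22 ranked 2 from the lowest share. Only miR-99a-5p at Candidate_135 had a lower one, 0.0617% (0.0200 to 0.144), and that interval overlaps the one of miR-22. The next higher share, 0.301% at Candidate_514, rested on 1 read against 331. Some pairs repeat the same reads at copied loci or share a row with another pair, so the 90 pairs and their medians are not of 90 separate loci. Pairs of few reads cannot show a share this low, and loci whose other arm was not predicted are missing from the count. For miR-101 there was no row for the 5p arm, so its arm ratio cannot be given.

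**Figure D3:**
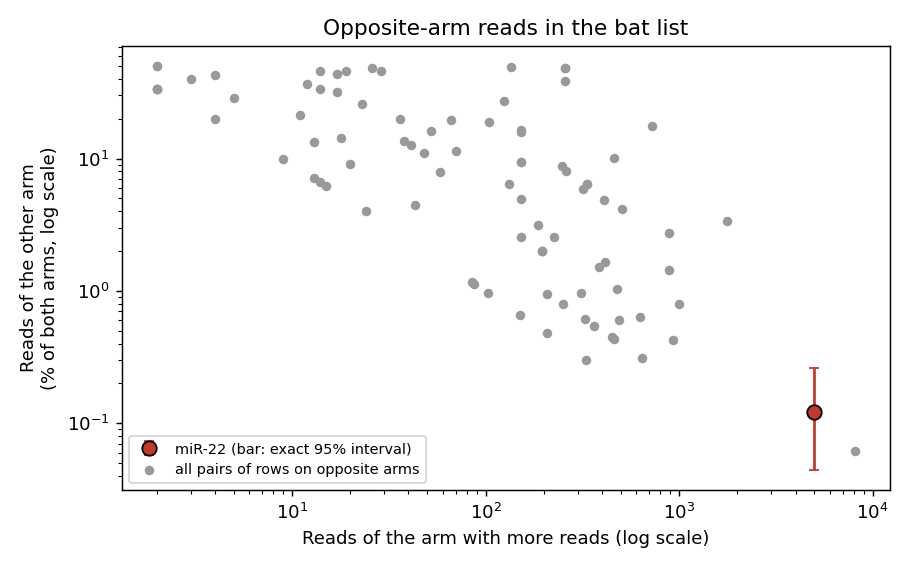
Reads of the less read arm as a percentage of both arms, on a log scale, against the reads of the other arm, on a log scale, for 90 pairs of bat rows on opposite arms. MiR-22 is drawn with its exact 95% interval at 0.120%, and 1 pair lies lower.

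Each miRNA was listed from 1 locus. The first 18 bases of miR-22-3p were held by Candidate_667 and Candidate_668, which are the same stretch, listed with 2 more bases at the 5′ end in Candidate_668, and the first 18 bases of miR-101-3p were held by Candidate_60 only. With up to 2 mismatches and on both strands the search found the same rows and no others. Among the rows with at least 1000 reads, 5 of 16 shared their mature sequence with another row, as did 183 of 762 in the whole list (24.02%). The reads of miR-22-3p and miR-101-3p are therefore not counted again at a second listed row, unlike those of Candidate_97 and Candidate_493. A human-like second miR-101 gene had no row of its own in this list. Where its mature sequence is the same as at Candidate_60, reads from both genes could not be told apart.

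No other bat row carried either seed at bases 2 to 8 or at bases 3 to 9 of its mature sequence, in either register. The 439 horse rows and the 252 dog rows held neither mature start, with up to 2 mismatches and on both strands, and neither seed at those bases. Whether known miRNAs were taken out of the horse and dog lists is not stated in the labels or files, so the missing matches do not bear on what those testes express.

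Over the 25 bases listed, the mature sequence of miR-22 was more fully paired than that of miR-101. In the fold of lowest free energy, 24 of the 25 bases of miR-22-3p were paired, or 96.0%. This was the highest share of the 16 rows with at least 1000 reads, whose median was 78.0%. Candidate_281 came next there at 92%. In the whole list the median was 84%, and 46 of the other 761 rows had a higher share than miR-22-3p. For miR-101-3p 21 of 25 bases were paired, a share of 84% that equalled the list median, and 376 of the other 761 rows had a higher one. The 4 unpaired bases were the last of the listed sequence, and the 21 before them were all paired. The unpaired base of miR-22-3p lay inside its sequence. The lower share of miR-101-3p thus rests on its listed 3′ end, and the ends of the individual reads are not known.

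The arms of miR-22 matched each other closely. Of the 21 bases of miR-22-5p, 20 paired with miR-22-3p, and 16 bases lay between the listed arms. The terminal loop was 9 bases long in miR-22 and 12 in miR-101, against a median of 6 over the list. In the rows with at least 1000 reads the median was 8, and Candidate_694 had 13. Over the list, 44 of 747 other rows with a single loop had a longer one than miR-101.

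MiR-101 had the longest uninterrupted helix of the strongly read rows. The longest helix ran over 15 base pairs in miR-22 and over 18 in miR-101. Among the 16 rows with at least 1000 reads miR-22 ranked 3 and miR-101 ranked 1, and the median there was 9. Candidate_281, also read from the 3p arm, ranked 2 with 17 pairs. The rest of the list held longer ones, up to 44 pairs, and 97 of the other 761 rows exceeded miR-101.

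Part of the miR-101 mature sequence was its own reverse complement. A script searched each mature sequence for the longest stretch equal to its reverse complement, shown here in capitals.
miR-101-3p, Candidate_60: gtACAGTACTGTgataactgaagga
This stretch had 10 bases and includes the seed in the register of bases 3 to 9. A stretch of 10 or more bases was present in 9 of 762 bat rows, among which Candidate_60 was the only one with at least 100 reads. The longest such stretch in miR-22-3p was 4 bases, which was also the median of the list.

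The whole hairpins were of middling stability. The folding energy was -52.3 kcal/mol over 135 bases for miR-22 and -50.3 over 115 bases for miR-101. Per base this was -0.39 kcal/mol for miR-22 and -0.44 for miR-101, against a median of -0.41 in the list, where a lower energy means a more stable fold. Among rows with at least 1000 reads the lowest value was -0.57, at Candidate_875. Of the other 761 rows, 61.9% had a lower energy per base than miR-22 (exact interval 58.3 to 65.4) and 41.8% a lower one than miR-101 (38.3 to 45.4). All rows had been selected by the predictor as hairpins, so these ranks hold within a selected list. The intervals treat the rows as independent draws. They are not, since 183 of the 762 rows share their mature sequence with another row. These intervals measure no spread and serve only as limits where settings are varied below.

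The hairpins were also cut to the stem-loop made of the mature, its partner arm and the bases between them. There miR-22 had -0.43 kcal/mol per base, which ranked 8 of the 16 rows with at least 1000 reads. MiR-101 had -0.515, the lowest of them, and Candidate_155 came next at -0.509. In the whole list 54.3% of other rows were lower than miR-22 and 30.2% lower than miR-101. The rows with 1 read had a median of -0.49 on this measure, and the rows with at least 1000 reads one of -0.42. The GC content of the mature sequence was 44.0% for miR-22-3p and 40.0% for miR-101-3p, against medians of 52.4% in the list and 48.0% in the rows with at least 1000 reads. Candidate_134 and Candidate_281 were also at 40.0%, and Candidate_602 and Candidate_341 at 44.0%, so both values were shared by other strongly read rows.

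**Figure D4:**
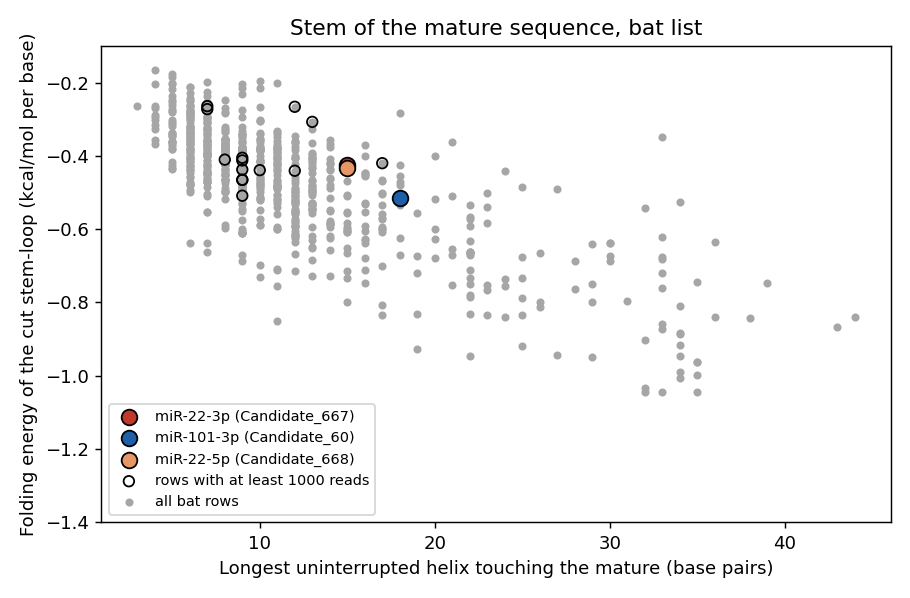
Folding energy of the stem-loop cut from the mature to its partner arm, in kcal/mol per base, against the longest uninterrupted helix touching the mature, in base pairs, for 762 bat rows. The circled rows have at least 1000 reads, and among them miR-101-3p lies furthest right and lowest, at 18 pairs and -0.515. Close to it on 1 axis each are Candidate_281 at 17 pairs and Candidate_155 at -0.509. Rows of longer helices fall outside that set.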

How the data were processed

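The authors' lists are output of a local installation of miRanalyzer, a predictor of miRNA hairpins, per the deposited column description. The deposited counts are distinct read sequences and summed reads per hairpin, with no normalization. As deposited, the score says how many of 5 models predicted a row. The deposited fraction, to 3 decimals, relates a row's reads to the total the authors analysed. The submitters' processing notes name CanFam3.1 for each analysed species, but the contig names of the bat list carry the name Eptesicus fuscus. Which bat build they come from is not stated, and the sources used here name no aligner or trimming.

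Species came from the sample titles, and with 1 library per species no test was run. Hairpins were folded with RNAfold 2.7.2 at 37 C. A mature sequence was assigned to the 3p arm where its pairing partners lay mostly before it in the hairpin, and otherwise to the 5p arm. Intervals are exact Clopper-Pearson at 95%. Other work used Python 3.11.15, numpy 2.4.6, pandas 2.3.3, scipy 1.17.1 and matplotlib 3.10.9. The sequence search and stem reading were tested on simulated sequences. Other settings tried were denominators of the shares, minimum reads, start lengths of 16 and 20 bases, mismatches and folding options. Named rows were the members, rows on their contigs or with their seeds, neighbours by reads, the 3 most read rows and the extremes among rows with at least 1000 reads. Candidate_155, Candidate_281, Candidate_341 and Candidate_514 were named after their values were seen. Members, lists and settings were chosen with earlier results of these data known.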

Additional observations from a re-analysis of the deposited data

How the results depend on the processing

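Of 32 alternative values, 21 stayed close to the reported one and 11 moved. Close means inside the counting interval of the reported share or ratio, and within 1.5 times for a count of rows. For a rank it means inside a binomial interval over the rows compared, which narrows with their number. For miR-22 it ran from 0.17% to 31.9% for distinct sequences per read, over 15 rows. For its energy per base it ran from 58.3% to 65.4%, over 761 rows. The tally therefore depends on how many rows were compared and is no measure of robustness. The share of listed reads of miR-22-3p was 6.35% with identical mature sequences once, 6.02% over rows of all 5 models and 6.25% without the most read row, and that of miR-101-3p was 3.59%, 3.40% and 3.53% in the same order. These follow from smaller denominators. The place of miR-101-3p in distinct sequences per read depended on the rows compared. With at least 1000 reads 86.7% of other rows were lower, with at least 2000 reads 100% and with at least 100 reads 16.1%. Against rows with at least 100 reads, 29.5% had a lower energy per base than miR-101. With the cut stem-loop 54.3% were lower than miR-22 and 30.2% lower than miR-101. The cause of these moves was not tested. The counts of rows holding each mature start and the read ratio stayed within these limits under every alternative run. This was largely fixed in advance. The members hold their own mature starts, so these counts could only rise. The alternative ratios differed from the reported one only by the 6 reads of miR-22-5p. No paired analysis was possible because each species had 1 library with values. Depth limits miR-22-5p, which rests on 6 reads.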
